A study of Mus musculus with 12 samples.

Results

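The epithelial cadherins and catenins described here are the 9 genes Cdh1, Cdh2, Cdh3, Cdh6, Cdh16, Ctnna1, Ctnnb1, Ctnnd1 and Jup. They were taken by symbol from the 24421 gene symbols of the deposited count and FPKM tables of mouse kidney RNA-seq, and the transcript with the highest total count stood for each gene. The 12 libraries came from whole kidneys of male C57BL/6 mice at 6 weeks of age, in 4 groups of 3. Mice of both genotypes, WT and Tet2-/-, were either left without surgery (baseline) or subjected to ischemia-reperfusion (IR), in which the right renal pedicle was clamped for 60 min, the left kidney was removed and the right kidney was collected 24 h after reperfusion. Tet2 encodes an enzyme that oxidises 5-methylcytosine in DNA. Tet2-/- is a germline genotype carried by every cell of the animal, and both genotypes were bred from Tet2+/- parents. Because baseline mice were not operated on, the comparison of IR with baseline includes surgery and loss of the other kidney. Sham-operated kidneys were not analysed here.

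Cadherins are calcium-dependent adhesion proteins that bind the same protein on the neighbouring cell. Inside the cell, the tail of a classical cadherin binds p120-catenin (Ctnnd1), which holds it at the membrane, and beta-catenin (Ctnnb1) or plakoglobin (Jup), which recruit alpha-catenin (Ctnna1) and through it the actin cytoskeleton. Beta-catenin is also the transcriptional effector of Wnt signalling, and plakoglobin is shared with desmosomes. In the kidney, E-cadherin (Cdh1) is the classical cadherin of the distal nephron and collecting duct, N-cadherin (Cdh2) and K-cadherin (Cdh6) belong to the proximal tubule and its precursors, and Ksp-cadherin (Cdh16) is a cadherin of tubular epithelium whose short tail lacks the catenin-binding sites. P-cadherin (Cdh3) is known from basal and developing epithelia.

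The targeted gene did not follow the genotype labels at baseline. Tet2 was at 9.15, 6.25 and 7.33 FPKM in WT baseline kidneys and at 9.24, 16.6 and 10.3 FPKM in the baseline kidneys labelled Tet2-/-, so all 3 of the latter were above all 3 of the former. After IR it was at 9.34, 3.97 and 3.85 FPKM in WT kidneys and 2.64, 3.20 and 1.76 FPKM in the kidneys labelled Tet2-/-. Which exons the allele lacks is not given in the sources used here, and the values cover the whole transcript, so the libraries are called by their labels throughout. Total counts over 1 transcript per gene ran from 51007366 to 107969888 per library. Kidney markers were abundant in every library. Summed FPKM of 9 tubular injury markers was 289 to 595 at baseline. It was 1810 to 8116 in WT IR and 12538 to 26421 in IR kidneys labelled Tet2-/-. In the same order, 10 proximal tubule markers summed to 4066 to 5040, 2852 to 3701 and 971 to 1593 FPKM. Such a sum is weighted to its most abundant genes and does not give the direction of each marker. The proximal tubule genes Aqp1, Cubn and Lrp2 each overlapped between WT baseline and WT IR. Their means there were 515 and 480, 25.1 and 29.8, and 83.8 and 72.0 FPKM. Under the label Tet2-/-, the IR libraries were below the baseline libraries for each of these genes. Replicate 3 of the IR kidneys labelled Tet2-/- stood apart with adipocyte markers at 602 FPKM. Its thick ascending limb markers summed to 409 FPKM, against 2161 and 2665 FPKM in replicates 1 and 2. In this list Slc12a1 was at 56.6, 46.0 and 18.3 FPKM in replicates 1 to 3, against 106 to 157 FPKM at baseline under that label. Egf was at 26.4, 13.2 and 2.82 FPKM against 118 to 204 FPKM. Cldn10 was also below its baseline in every replicate, while Kcnj1 and Cldn16 overlapped with theirs. WT baseline replicates 2 and 3 also held adipocyte markers at 138 and 279 FPKM, against 38.7 to 72.4 FPKM in the other baseline libraries. In whole kidney, fewer cells of a type and less RNA per cell cannot be told apart.

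Cdh3, Cdh1 and Cdh16 lie on chromosome 8 of mm9, Cdh3 at chr8:109034752-109080811 and Cdh1 at chr8:109127268-109194146 on the plus strand, 46.5 kb apart, and Cdh16 at chr8:107138039-107148296 on the minus strand. Cdh6 is on chromosome 15, Ctnnb1 on 9, Ctnnd1 on 2 and Jup on 11. The 250 bases upstream of each start were read from the mm9 genome for the 7 genes other than Cdh2 and Ctnna1. Those of the neighbours Cdh1 and Cdh3 are shown because both genes rose after IR in kidneys labelled Tet2-/- and because the classical repressors of Cdh1 bind the E-box letters CACCTG or CAGGTG. Those of Cdh16 are shown for contrast, as the member whose level fell. Each is written 5′ to 3′ on the gene's strand and ends at the base before the start, with the E-box letters of either strand in capitals.
Cdh1, chr8:109127018-109127267, plus strand: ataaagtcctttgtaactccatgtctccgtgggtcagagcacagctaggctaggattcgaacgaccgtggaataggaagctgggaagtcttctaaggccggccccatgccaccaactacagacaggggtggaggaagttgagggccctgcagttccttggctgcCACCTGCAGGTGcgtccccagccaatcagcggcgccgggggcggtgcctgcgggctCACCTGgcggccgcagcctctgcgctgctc
Cdh3, chr8:109034502-109034751, plus strand: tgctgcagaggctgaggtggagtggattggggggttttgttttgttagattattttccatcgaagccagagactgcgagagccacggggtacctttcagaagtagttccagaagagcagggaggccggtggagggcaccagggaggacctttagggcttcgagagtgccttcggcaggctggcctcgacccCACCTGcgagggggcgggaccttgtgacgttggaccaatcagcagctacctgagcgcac
Cdh16, chr8:107148297-107148546, minus strand: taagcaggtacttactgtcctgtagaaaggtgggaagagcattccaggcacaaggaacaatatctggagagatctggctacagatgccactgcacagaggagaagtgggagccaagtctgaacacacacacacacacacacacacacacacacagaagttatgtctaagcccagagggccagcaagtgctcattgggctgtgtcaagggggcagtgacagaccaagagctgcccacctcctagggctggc
Cdh1 held 3 such matches, of which a pair lies directly side by side from 86 to 75 bases before the start and the third lies 30 to 25 bases before it. Cdh3 held 1 match, from 59 to 54 bases before its start, and the windows of Cdh6, Cdh16, Ctnnb1, Ctnnd1 and Jup held 0. Of 24348 such windows, 16.99% contained at least 1 match. The Cdh1 window had 62.8% GC and 14 CpG, that of Cdh3 59.2% and 11, and that of Cdh16 53.2% and 0, where the median over all windows was 55.2% and 9. These are descriptions of letters, and binding was not measured.

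On the length-scaled FPKM, the kidney cadherin transcript pool was mostly Cdh16. Its mean over the 3 WT baseline libraries made up 86.8% ± 0.781 (SD, n = 3) of the summed FPKM of the 5 cadherins, and Cdh1 made up 12.7% ± 0.831. Cdh2, Cdh3 and Cdh6 each had a mean FPKM under 1 at baseline, and none of them exceeded 0.456% of the sum in any baseline library. Among the 4 catenins, Ctnnb1 and Ctnna1 were the most abundant, with 46.1% and 32.5% of the summed catenin FPKM in WT baseline kidneys, and Jup and Ctnnd1 held 11.1% and 10.3%. The lowest count in any library ran from 6801 for Ctnnd1 to 41042 for Cdh16 among the 6 abundant members. Cdh2, Cdh6 and Cdh3 rested on fewer reads, at 120 to 387, 52 to 462 and 200 to 2852 counts per library.

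**Figure D1:**
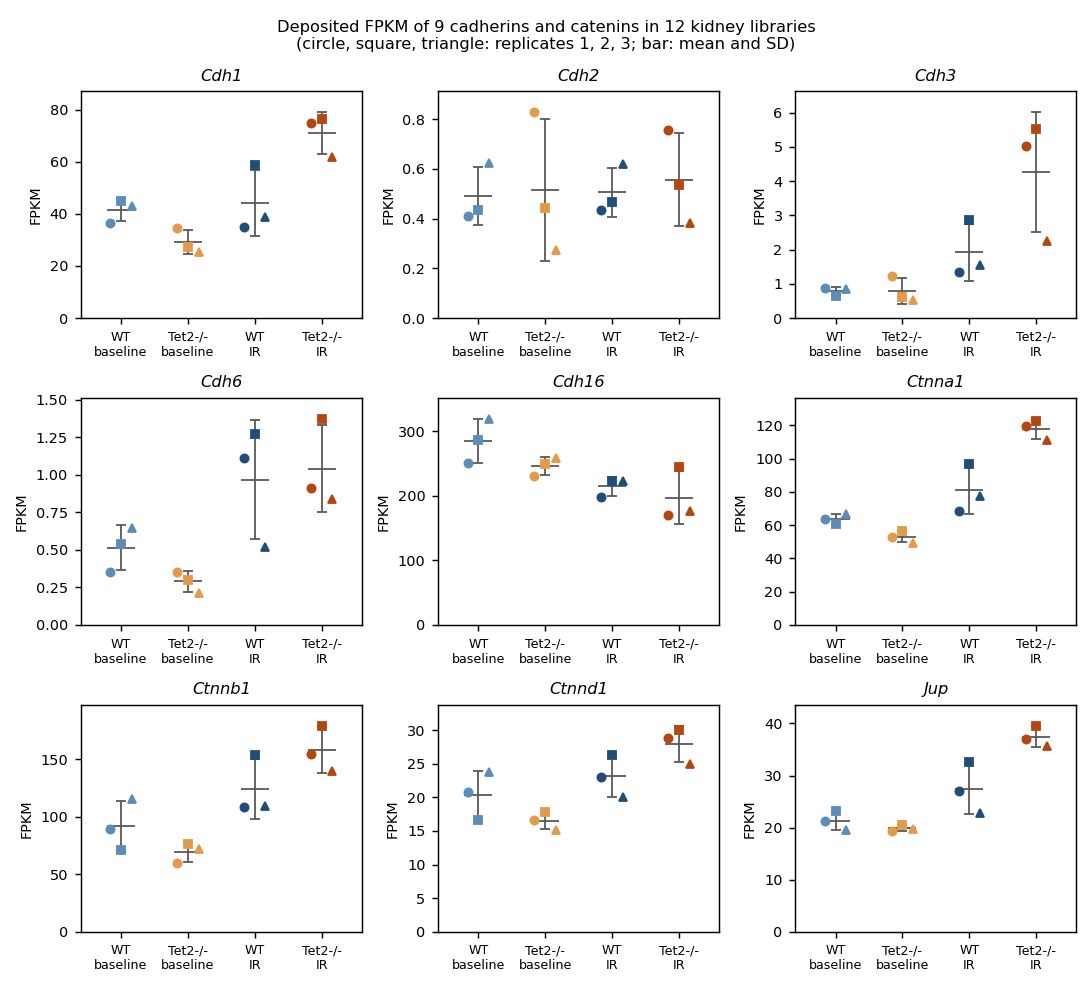
FPKM (linear axes from 0) of the 9 genes in each of the 12 libraries, grouped as WT baseline, baseline labelled Tet2-/-, WT IR and IR labelled Tet2-/-; symbols mark replicates 1 to 3, and bars give mean and SD. Cdh1, Cdh3, Cdh6 and the 4 catenins sit higher in IR kidneys labelled Tet2-/- than in their baseline, Cdh16 sits lower on average, and the Cdh2 groups overlap.

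The first question was how the genes respond to IR in WT kidneys. E-cadherin did not pass the test. Cdh1 was at 36.7, 45.1 and 43.2 FPKM in WT baseline kidneys and at 35.1, 58.6 and 38.9 FPKM after IR. The groups overlapped, and the log2 fold change was 0.02 with a 95% confidence interval from -0.46 to 0.50. With edgeR's quasi-likelihood test and Benjamini-Hochberg adjustment over 16015 genes, 0 of 9 members were called at an adjusted p of 0.05, where 3.02% of all genes were called in either direction. At an unadjusted p under 0.05, 2 members passed, against 22.7% of all genes: Cdh3 and Cdh16.

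Cdh3 had the largest log2 fold change of the 9 in WT kidneys. P-cadherin was at 0.868, 0.647 and 0.864 FPKM at baseline and 1.35, 2.87 and 1.54 FPKM after IR. All 3 IR libraries were above all 3 baseline libraries, and the log2 fold change was 1.203 (SE 0.32, edgeR adjusted p = 0.0888). DESeq2 and edgeR's exact test called it, with adjusted p of 0.00488 and 0.0203.

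Ksp-cadherin went the other way. Cdh16 was at 251, 286 and 319 FPKM in WT baseline kidneys and 198, 223 and 223 FPKM after IR. Every IR library was below every baseline library, with a log2 fold change of -0.47 (SE 0.17, edgeR adjusted p = 0.166), which DESeq2 called at an adjusted p of 0.0465. Cdh6 was at 0.351, 0.540 and 0.647 FPKM at baseline and 1.11, 1.27 and 0.520 FPKM after IR, so replicate 3 of the IR group lay within the baseline range.

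The catenins of WT kidneys changed by less than the test could call. Their log2 fold changes were 0.29 for Ctnna1, 0.36 for Ctnnb1, 0.11 for Ctnnd1 and 0.30 for Jup, with SE from 0.13 to 0.23. Each of the 4 confidence intervals included 0, and their upper ends ran from 0.50 for Ctnnd1 to 0.90 for Ctnnb1. The median log2 fold change of the 9 genes was 0.29, beside -0.03 over all genes tested.

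The same comparison in kidneys labelled Tet2-/- gave calls for 8 of the 9 genes, 7 higher and 1 lower. In that comparison 43.1% of 16359 genes were called, 22.9% higher and 20.3% lower, so calls were common among all genes. Cdh1, Cdh3 and Cdh6 also passed a log2 fold change of 1, as did 12.7% of all genes. On FPKM, 7 of 9 had all IR libraries above all baseline libraries, where 40.5% of all genes did. The median of the 9 was 0.90 on the log2 scale, beside 0.04 over all genes.

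E-cadherin transcript rose in all 3 IR kidneys. Cdh1 was at 34.4, 27.5 and 25.5 FPKM in the baseline kidneys labelled Tet2-/- and at 74.8, 76.6 and 61.9 FPKM after IR. The groups were far apart, and the log2 fold change was 1.03 (SE 0.16, edgeR adjusted p = 0.00191).

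P-cadherin had the largest change of the 9. Cdh3 was at 1.22, 0.613 and 0.530 FPKM at baseline and 5.02, 5.51 and 2.26 FPKM after IR. All IR libraries were above all baseline libraries, although replicate 3 rose least, and the log2 fold change was 2.17 (SE 0.41, edgeR adjusted p = 0.00466). The summed FPKM of 5 urothelium markers likewise did not overlap, at 1.79 to 9.21 at baseline and 13.7 to 24.9 after IR. Among the IR libraries the sum was highest in replicate 3, where Cdh3 was lowest. In WT baseline kidneys the sum was 19.0 to 43.6 FPKM, with Cdh3 at 0.647 to 0.868 FPKM. The part of these markers in the Cdh3 value was not tested. K-cadherin, which marks nephron precursors in the developing kidney, was at 0.354, 0.302 and 0.213 FPKM at baseline and 0.911, 1.37 and 0.839 FPKM after IR. Its groups did not overlap, and the log2 fold change was 1.58 (SE 0.31, edgeR adjusted p = 0.00592).

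Ksp-cadherin was the member called lower. Cdh16 was at 231, 249 and 259 FPKM at baseline and 170, 245 and 177 FPKM after IR, with a log2 fold change of -0.59 (SE 0.19, edgeR adjusted p = 0.0368). On FPKM, replicate 2 of the IR group lay inside the baseline range, whereas on TMM-scaled counts the groups were apart. The call was lost with library sizes alone (-0.35, adjusted p = 0.151) and in limma on log2(FPKM + 1) (-0.34, adjusted p = 0.163), and it held in 1 of 6 fits that left out a library, the one without IR replicate 2. Without IR replicate 3, the library rich in adipocyte markers, the value was -0.57 (adjusted p = 0.0506).

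N-cadherin was not called. Cdh2 was at 0.829, 0.441 and 0.275 FPKM at baseline and 0.755, 0.534 and 0.381 FPKM after IR. The groups overlapped throughout, and the log2 fold change of -0.14 had a 95% confidence interval from -1.15 to 0.87. Its sign turned positive with library sizes alone.

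All 4 catenins rose after IR in kidneys labelled Tet2-/-, and in each the IR libraries were above the baseline libraries. Ctnnb1, encoding beta-catenin, was at 59.9, 76.2 and 72.0 FPKM at baseline and 154, 179 and 140 FPKM after IR. Its log2 fold change was 0.92 (SE 0.17, edgeR adjusted p = 0.00422). Ctnna1, encoding the actin-linking alpha-catenin, was at 53.1, 56.3 and 49.5 FPKM and then at 120, 123 and 111 FPKM. This narrow spread gave a log2 fold change of 0.90 (SE 0.14, edgeR adjusted p = 0.00206).

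Jup, encoding plakoglobin, went from 19.4, 20.5 and 19.6 FPKM to 37.0, 39.6 and 35.6 FPKM. Its log2 fold change was 0.65 (SE 0.12, edgeR adjusted p = 0.00385). Ctnnd1, encoding p120-catenin, went from 16.6, 17.8 and 15.2 FPKM to 28.9, 30.1 and 24.9 FPKM. It had the smallest change of the called members, with a log2 fold change of 0.50 (SE 0.12, edgeR adjusted p = 0.0141). That call was lost without baseline replicate 1 (adjusted p = 0.0518) or without baseline replicate 3 (adjusted p = 0.0785), and with the trend of fold change on transcript length taken out the value was 0.33. All 7 genes called higher were also higher, at an adjusted p under 0.05, in DESeq2, in the exact test and under every other scaling tried.

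**Figure D2:**
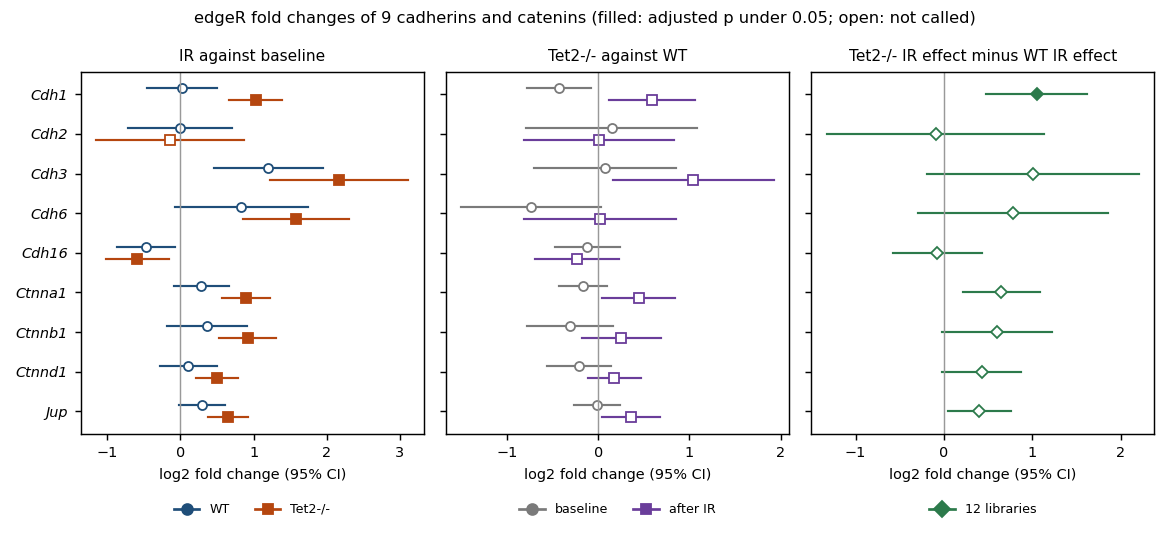
edgeR log2 fold changes with 95% confidence intervals for the 9 genes, comparing IR with baseline within each genotype label, the label Tet2-/- with WT at baseline and after IR, and the IR effect between the labels over 12 libraries. Filled symbols are called at an adjusted p under 0.05: 8 genes for IR in kidneys labelled Tet2-/-, 0 in the other 3 comparisons of 6 libraries and Cdh1 for the difference of the IR effects.

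Whether the IR effect differed between the genotype labels was tested with the interaction over all 12 libraries. Cdh1 was the 1 member called, where 9.18% of 16741 genes were called in either direction and 3.79% in the positive direction. Its log2 IR effect was higher by 1.05 (SE 0.26, 95% confidence interval 0.47 to 1.62, edgeR adjusted p = 0.0326) in kidneys labelled Tet2-/-. The median interaction over all genes was 0.10. The Cdh1 call held in 4 of 12 fits that left out a library, with values from 0.89 to 1.27 and adjusted p from 0.00862 to 0.0921. Without WT baseline replicates 2 and 3 together the value was 0.82 (adjusted p = 0.227), in a fit with 1 WT baseline library, which was assumed to vary like the other groups.

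Alpha-catenin came next. The interaction of Ctnna1 was 0.65 (SE 0.20, edgeR adjusted p = 0.0632), and it passed with DESeq2 (adjusted p = 0.0127) and with library sizes alone (adjusted p = 0.0263). Jup had 0.40 (adjusted p = 0.140), Ctnnb1 0.60 (adjusted p = 0.202), Ctnnd1 0.43 (adjusted p = 0.203), Cdh3 1.003 (adjusted p = 0.261) and Cdh6 0.78 (adjusted p = 0.331). For Cdh16 the interaction was -0.08, with an interval from -0.58 to 0.42. Thus a different IR effect was called for Cdh1 alone among the 9, and for the others the data did not show whether the effects differed.

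Compared with WT mice, baseline kidneys labelled Tet2-/- showed 0 of 9 members called, where 0.0124% of 16086 genes were called. DESeq2 and the exact test also called 0 members. Cdh1 was the member at an unadjusted p under 0.05, which 11.8% of all genes reached. All 3 libraries labelled Tet2-/- (25.5 to 34.4 FPKM) were below all 3 WT libraries (36.7 to 45.1 FPKM), and the log2 fold change was -0.43 (SE 0.15, edgeR adjusted p = 0.352). Without WT baseline replicates 2 and 3, which left 1 library in the WT group, it was -0.24. Ctnna1 likewise did not overlap on FPKM, with 49.5 to 56.3 against 60.4 to 66.4, a log2 fold change of -0.17 and an adjusted p of 0.543. In FPKM, 16.5% of all genes lay lower without overlap in this comparison. Urothelium markers summed to 1.79 to 9.21 FPKM in baseline kidneys labelled Tet2-/- and 19.0 to 43.6 FPKM in WT baseline kidneys, and their part in these values was not tested.

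Compared with WT IR kidneys, IR kidneys labelled Tet2-/- again gave 0 of 9 members called, where 9.68% of 16186 genes were called. At an unadjusted p under 0.05, 4 members were higher, Cdh1, Cdh3, Ctnna1 and Jup, against 13.9% of all genes in that direction. Cdh1 was 0.59 higher on the log2 scale (SE 0.20, edgeR adjusted p = 0.108), with 61.9 to 76.6 FPKM above 35.1 to 58.6 FPKM in all libraries. Cdh3 was 1.04 higher (SE 0.37, adjusted p = 0.121), and its groups overlapped, at 2.26 to 5.51 and 1.35 to 2.87 FPKM. Ctnna1 was 0.44 higher (SE 0.17, adjusted p = 0.143) and Jup 0.36 higher (SE 0.13, adjusted p = 0.136), both without overlap. On FPKM, 3 of 9 members lay above the WT IR libraries without overlap, as did 22.0% of all genes. DESeq2 called Cdh1, Cdh3 and Ctnna1, with adjusted p of 0.0371, 0.0398 and 0.0459, and a fit of all 12 libraries called Cdh1 and Ctnna1. The shares of all genes called in these fits are not given here, so these calls have no background beside them. Cdh2, Cdh6, Cdh16, Ctnnb1 and Ctnnd1 had log2 differences from -0.23 to 0.25 with intervals that included 0.

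The order of the group means was the same for 7 of the 9 genes on FPKM: baseline labelled Tet2-/-, WT baseline, WT IR and IR labelled Tet2-/-, from low to high. The share of all genes with this order is not given here, so the count has no background beside it. In limma on log2(FPKM + 0.1), the median over all genes went the same way: -0.07 for genotype at baseline, 0.04 for IR in WT and 0.12 for genotype after IR. For Cdh16 the order was IR labelled Tet2-/-, WT IR, baseline labelled Tet2-/- and WT baseline. Most neighbours in these orders overlapped. Between WT baseline and WT IR, Cdh3 and Ctnna1 were separated upward and Cdh16 downward on FPKM, as were 18.9% and 10.4% of all genes. Cdh1 and Ctnna1 were separated between the 2 baseline groups, and Cdh1, Ctnna1 and Jup between the 2 IR groups. Within the WT IR group, replicate 2 was above its group mean for 8 of 9 members and replicate 1 for 1 of 9. The shares of all genes above their group mean in these replicates are not given here. Injury markers were also lowest in replicate 1 (1810 FPKM) and highest in replicate 2 (8116 FPKM), and whether this has a part in the members' spread was not tested.

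The balance among the cadherins shifted with IR. Cdh1 made up 12.7, 13.5 and 11.9% of the summed cadherin FPKM in WT baseline kidneys, and 14.9, 20.5 and 14.7% after IR. In kidneys labelled Tet2-/- its share was 12.9, 9.90 and 8.94% at baseline and 29.7, 23.3 and 25.5% after IR. Every IR kidney labelled Tet2-/- thus had a higher Cdh1 share than every other library. The difference between IR and baseline was 15.6 percentage points in kidneys labelled Tet2-/- and 4.002 in WT kidneys, and the difference between the IR groups was 9.50. With FPKM summed over all deposited transcripts of each gene these differences were 7.06, 1.68 and 4.58 points, and without WT IR replicate 2 the WT value was 2.11. The differences of 15.6, 4.002 and 9.50 points each gave p = 0.1 in an exact two-sided permutation test. This is the smallest p that 3 against 3 libraries can give, so the design could not reach 0.05. The summed values and the value with a library left out were not tested. The Cdh16 share was 71.7% ± 3.603 (SD, n = 3) in IR kidneys labelled Tet2-/- and 82.02% ± 3.57 in WT IR kidneys.

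The ratio of E-cadherin to N-cadherin, often used to describe epithelial state, was on average no lower after IR under either genotype label. The log2 ratio of Cdh1 over Cdh2 FPKM was 6.43 ± 0.29 in WT baseline, 6.43 ± 0.50 in WT IR, 5.96 ± 0.58 in baseline labelled Tet2-/- and 7.05 ± 0.37 in IR labelled Tet2-/- kidneys (SD, n = 3). In the latter comparison the IR libraries were all above baseline, at an exact permutation p of 0.1. Cdh2 rested on 120 to 387 counts per library. Proximal tubule markers summed to 4305 to 5040 FPKM at baseline and 971 to 1593 FPKM after IR under the label Tet2-/-. In WT kidneys they summed to 4066 to 4928 and 2852 to 3701 FPKM, and their part in the ratio was not tested. The summed FPKM of the 5 cadherins was 277 ± 8.98 at baseline and 274 ± 47.3 after IR in kidneys labelled Tet2-/-. That of the 4 classical cadherins Cdh1, Cdh2, Cdh3 and Cdh6 went from 30.7 ± 5.39 to 76.97 ± 10.1, and that of the 4 catenins rose from 159 ± 11.1 to 341 ± 30.2 (exact permutation p = 0.1). Among the catenins, Ctnnb1 held between 43.6% and 48.3% of their sum in all 4 group means, and Ctnnd1 went from 10.4% to 8.20% in kidneys labelled Tet2-/- without overlap (exact permutation p = 0.1).

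**Figure D3:**
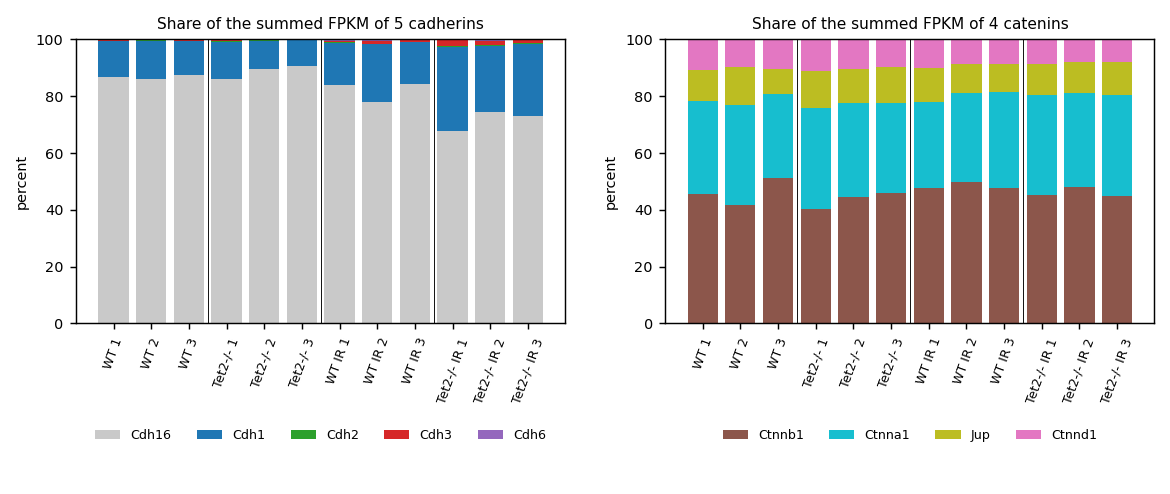
Percent of the summed FPKM of 5 cadherins (left) and 4 catenins (right) in each of the 12 libraries, where WT and Tet2-/- without IR are the baseline libraries. The Cdh1 share is 23.3 to 29.7% in IR kidneys labelled Tet2-/- and 8.94 to 20.5% in the other libraries, and Ctnnb1 has the highest share of the catenins in every library.

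Genes with several deposited transcripts gave like changes. In kidneys labelled Tet2-/-, the 5 Ctnnd1 transcripts had log2 IR effects from 0.47 to 0.49, and those of the 2 Ctnnb1 transcripts were 0.91 and 0.90. These transcripts share most of their reads and are not independent. The 3 Cdh16 transcripts had -0.60, -0.61 and -0.44. The last was not called (edgeR adjusted p = 0.0833).

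The members' profiles over the 12 libraries were compared with those of 12213 genes by the root mean square distance of centred log2(FPKM + 0.1) values. The genes nearest to Cdh1 were Ptprj (0.11), encoding a receptor tyrosine phosphatase, Sipa1l3 (0.11) and Fam49b (0.13). Ctnna1 was the nearest other member, at rank 30. Nearest to Ctnnb1 were Atp2b1 (0.08), Appbp2 (0.09) and Jak1 (0.10), nearest to Cdh16 were Gatad1 (0.11), Agtpbp1 (0.11) and Cenpj (0.13), and nearest to the low Cdh6 were Cav2 (0.26), Klhl25 (0.29) and Mir7065 (0.29). These libraries share depth and scaling across genes, and the distances are descriptions only.

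The surrounding junction genes were read from 10 lists, each by its count beside the background given above for the comparison. In WT kidneys 4 of their genes were called after IR, where 3.02% of all genes were called. All 4 were higher: the nectin gene Pvrl1, the actin regulator Cttn, and the beta-catenin targets Fosl1 and Myc. These were chosen for naming after their values were seen. DESeq2 called 18 entries of the lists higher and 2 lower in WT kidneys, and the fit with the replicate number as a block 10 and 7. Leaving out a library gave 11 higher without WT IR replicate 1, 1 without WT IR replicate 3 and 0 without any of the other four. In kidneys labelled Tet2-/-, calls were found in every list, where 22.9% of all genes were called higher and 20.3% lower. The genotype labels at baseline gave 0 calls in edgeR in all 10 lists. Of their 159 tested entries, some of them in more than 1 list, 25 had an unadjusted p under 0.05, and DESeq2 called 9. Between the IR groups, 9.68% of all genes were called in either direction. Of the lists, 4 nectin and linker genes, 2 proteases, 2 trafficking genes, 2 beta-catenin targets, 1 other cadherin, 1 transition factor and 1 epithelial regulator were called higher under the label Tet2-/-. Called lower were 2 epithelial regulators and 1 gene each of the desmosome, trafficking, target and other cadherin lists. These counts changed with the libraries and the tool. Over all lists they came to 13 higher and 6 lower, and to 33 and 11 with DESeq2. The shares of all genes called by DESeq2 and the other alternatives are not given here. With a library left out, 1 to 13 were higher and 1 to 5 lower, the fewest higher without WT IR replicate 3, and 5 of the 6 such fits, all but the one without WT IR replicate 2, called over 1.5 times fewer higher. The median log2 IR effects in kidneys labelled Tet2-/-, beside 0.04 over all genes, were 1.07 for desmosome genes, 0.50 for other catenins, 0.50 for proteases, 0.30 for epithelial regulators, 0.29 for trafficking genes, 0.25 for beta-catenin targets, 0.22 for transition factors, 0.09 for the destruction complex list and -0.43 for other cadherins.

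Nectins, afadin and actin linkers, which build the second adhesion system of the adherens junction and tie it to actin, had the highest share of genes called higher. Of 23 tested, 16 were called higher and 1 lower after IR in kidneys labelled Tet2-/-, and the median log2 fold change was 0.99, beside 0.04 over all genes. Pvr, a nectin-like receptor, was at 2.97, 2.41 and 2.06 FPKM at baseline and 27.0, 19.9 and 27.1 FPKM after IR, a log2 fold change of 3.07 (edgeR adjusted p = 0.000118). Actn1, encoding the actin cross-linker alpha-actinin 1, rose by 2.16 on the log2 scale (adjusted p = 0.000545). Plekha7, which links p120-catenin to microtubules, fell by 0.46 on the log2 scale (adjusted p = 0.0273). In WT kidneys, 2 of 23 were called, both higher, and DESeq2 called 6.

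In the desmosome list 3 of 6 tested genes were called higher and 1 lower after IR in kidneys labelled Tet2-/-. For this and the next 2 lists, the shares of all genes called were 22.9% higher and 20.3% lower. Dsg2, a desmosomal cadherin, was at 1.04, 1.18 and 0.695 FPKM at baseline and 4.05, 5.20 and 4.45 FPKM after IR, a log2 fold change of 1.97 (edgeR adjusted p = 0.000468). The plakin gene Ppl rose by 1.59 on the log2 scale (adjusted p = 0.0228), whereas the related Evpl was lower than in WT IR kidneys (log2 fold change -1.42, adjusted p = 0.0148). Dsp, which encodes desmoplakin and was named after its values were seen, had a log2 fold change of 1.14 between IR and baseline. It was at 4.408, 2.685 and 2.391 FPKM at baseline and 9.795, 11.17 and 4.266 FPKM after IR, so IR replicate 3 lay within the baseline range. Among the other cadherins, 3 of 13 were called higher and 3 lower. The giant cadherin Fat1 rose by 1.16 on the log2 scale (adjusted p = 0.00109), and the other two, Cdh17 and Cdh23, were at most 0.299 and 0.025 FPKM in any library. Besides the pair below, Celsr2 was called lower (-0.43). Cdh17, Cdh23 and Celsr2 were named after their values were seen. Both brush border protocadherins went lower in IR kidneys labelled Tet2-/-: Cdhr2 with a log2 fold change of -1.29 against WT IR (adjusted p = 0.0131) and Cdhr5 with -1.03 against its baseline (adjusted p = 0.00168). Summed markers of the proximal tubule, the cell type with this brush border, were also lower in both comparisons, as given above. In WT kidneys the summed markers fell after IR, whereas Cdhr2 rose from 12.4 to 16.7 FPKM at baseline to 19.3 to 23.4 FPKM. Cdhr5 was there at 55.8 to 60.2 FPKM at baseline and 50.8 to 55.4 FPKM after IR. The part of the markers in these changes was not tested. Among the other catenins, 2 of 11 were called higher, Pkp2 (1.08, adjusted p = 0.0027) and Pkp3 (0.85, adjusted p = 0.00422), which encode plakophilins, and 2 lower, Pkp4 (-0.57, adjusted p = 0.0342) and Ctnna2 (-6.30, adjusted p = 0.000155). Ctnna2, the alpha-catenin known from neurons and named after its values were seen, was at 0.543 to 0.602 FPKM at baseline and at most 0.014 FPKM after IR. In WT kidneys Ctnna2 was at 0.394 to 0.663 FPKM at baseline and 0.034 to 0.231 FPKM after IR, also without overlap. In edgeR no gene of this list was called in WT kidneys.

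Proteases that cleave cadherins showed 10 of 15 tested genes called higher and 2 lower after IR in kidneys labelled Tet2-/-. Of all genes, 22.9% were called higher and 20.3% lower in that comparison. Mmp7, a matrilysin that sheds E-cadherin, was at 0.015, 0.050 and 0.012 FPKM at baseline, on 1 to 6.5 counts, and at 3.01, 5.504 and 3.44 FPKM after IR. Mmp9 was at most 0.087 FPKM at baseline and at 1.61, 2.83 and 0.469 FPKM after IR, a log2 fold change of 4.31 (edgeR adjusted p = 0.00273). Summed neutrophil markers, a cell type that carries this gelatinase, were 75.1 to 133 FPKM in these IR libraries and at most 9.46 FPKM in every other group, and their part in the Mmp9 value was not tested. The gelatinase Mmp2 was among those called lower (log2 fold change -0.92, adjusted p = 0.045). In the list of cadherin trafficking and phosphatases, 7 of 20 were called higher and 1 lower, beside the same shares of all genes. Ptprj rose by 1.19 on the log2 scale (adjusted p = 0.000304), and the kinase Csnk1e was 1.24 higher than in WT IR kidneys (adjusted p = 0.0175). The receptor phosphatase Ptpru fell by 0.71 (adjusted p = 0.049), and Ptprk was lower than in WT IR kidneys (log2 fold change -0.52, adjusted p = 0.0403).

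The Wnt arm of beta-catenin did not move in one direction. In the list of the destruction complex and Wnt transcription, 7 of 25 genes were called higher and 4 lower after IR in kidneys labelled Tet2-/-, near the background shares of 22.9% and 20.3%. The kinase Csnk1a1, which primes beta-catenin for degradation, rose by 0.89 (edgeR adjusted p = 0.00142) and the Wnt co-receptor Lrp5 by 0.74 (adjusted p = 0.048), while the ubiquitin ligase subunit Btrc fell by 0.48 (adjusted p = 0.0187) and the co-receptor Lrp6 by 0.40 (adjusted p = 0.0363). Axin2 (-1.42) and Lef1 (-2.12), which belong to both Wnt lists and were named after their values were seen, were the others called lower. Both were low, Axin2 at 0.196 to 0.347 FPKM at baseline and 0.076 to 0.164 FPKM after IR, and Lef1 at 0.184 to 0.427 and 0.03 to 0.107 FPKM. In WT kidneys Axin2 was at 0.421 to 1.087 FPKM at baseline and 0.031 to 0.309 FPKM after IR, without overlap, whereas the Lef1 groups overlapped. Of 18 beta-catenin target genes, 6 were called higher and 4 lower. Fosl1, an AP-1 subunit, went from 0.114, 0.145 and 0.169 FPKM to 37.5, 22.0 and 23.6 FPKM. The genes called lower were Axin2, Lef1, the Wnt feedback gene Notum (-1.65, adjusted p = 0.0003) and the transcription factor gene Sp5 (-0.85, adjusted p = 0.031). Notum, at 8.61, 9.49 and 5.89 FPKM, was also below all WT IR libraries, at 16.3 to 25.5 FPKM.

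**Figure D4:**
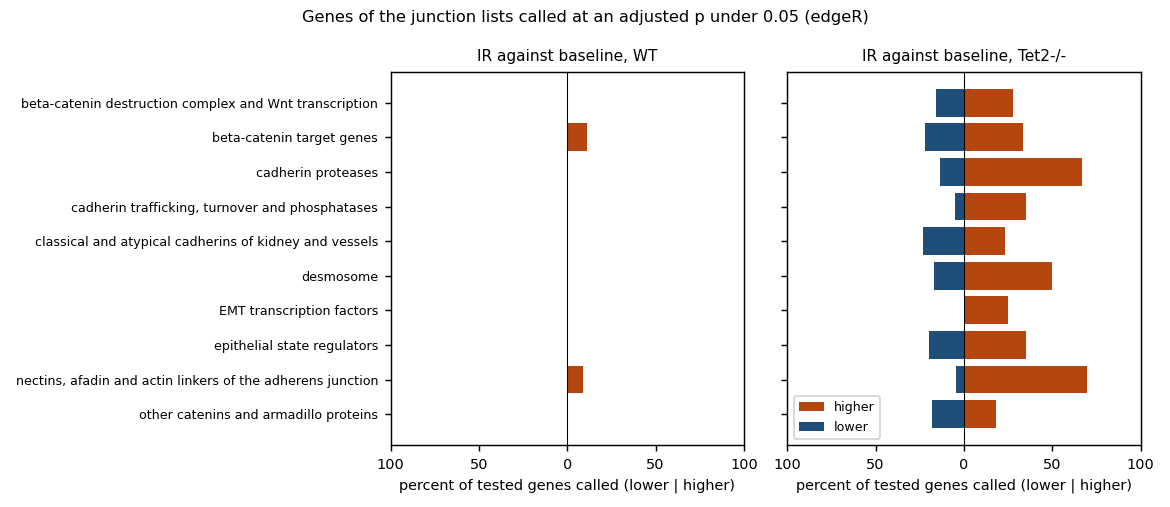
Percent of the tested genes of 10 junction lists called at an adjusted p under 0.05 after IR, higher to the right and lower to the left, in WT kidneys and in kidneys labelled Tet2-/-. In WT kidneys 2 lists have calls, and in kidneys labelled Tet2-/- the list of nectins, afadin and actin linkers has 16 of 23 genes called higher, beside 22.9% of all genes.

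The factors of epithelial-to-mesenchymal transition include the Snail and Zeb proteins, which are known to repress Cdh1 through the E-box letters printed above. Of 12 tested, 3 were called higher after IR in kidneys labelled Tet2-/- and 0 lower, where 22.9% of all genes were called higher. Snai3 was at 0.223, 0.193 and 0.288 FPKM at baseline and 2.29, 0.934 and 1.44 FPKM after IR, a log2 fold change of 2.49 (edgeR adjusted p = 0.00341). Zeb1 was at 0.515, 0.685 and 0.646 FPKM and then at 1.22, 1.74 and 0.983 FPKM, a log2 fold change of 0.82 (adjusted p = 0.0281). The third, Twist2, was at most 0.396 FPKM in any library. Snai1, at 0.283 to 0.514 and 0.368 to 1.54 FPKM, had a log2 fold change of 0.95 (adjusted p = 0.164), and Snai2 had -1.08 (adjusted p = 0.133). For both genes the IR and baseline libraries overlapped.

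Among 20 regulators and effectors of the epithelial state, 7 were called higher and 4 lower after IR in kidneys labelled Tet2-/-. Of all genes, 22.9% were called higher and 20.3% lower. Klf5, a factor of collecting duct epithelium, was at 0.384, 0.346 and 0.229 FPKM at baseline and 3.43, 4.04 and 1.52 FPKM after IR, a log2 fold change of 2.94 (edgeR adjusted p = 0.00122). In WT kidneys Klf5 was at 1.31, 3.82 and 1.84 FPKM at baseline and 0.749, 2.58 and 1.05 FPKM after IR, so its groups overlapped there. Under the label Tet2-/-, the urothelium markers rose between baseline (1.79 to 9.21 FPKM) and IR (13.7 to 24.9 FPKM), as did Klf5 and Ppl. In WT kidneys they summed to 19.0 to 43.6 and 13.2 to 63.4 FPKM. Within WT IR, replicate 1 had the highest sum (63.4 FPKM) and the lowest Klf5 (0.749 FPKM) and Ppl (2.31 FPKM). Within IR labelled Tet2-/-, replicate 3 had the highest sum (24.9 FPKM), the lowest Klf5 (1.52 FPKM) and the highest Ppl (12.6 FPKM). The part of these markers in the Klf5 and Ppl values was not tested. Klf4 was 1.51 higher than in WT IR kidneys (adjusted p = 0.0181). Ovol1, a repressor of mesenchymal genes, fell by 1.42 on the log2 scale (adjusted p = 0.00114).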

How the data were processed

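RNA was sequenced from 12 mouse kidneys. Per the paper's methods and the labels, the authors used STAR for alignment to mm9 and HOMER for counting on RefSeq transcripts. They deposited expected counts without normalization, in steps of 0.5 with 38.7% of values not whole, and the FPKM of the same transcripts. The tables hold 34600 transcripts of 24421 symbols, and 5569 symbols had more than 1, of which the one with the highest total was used. Strand and aligner settings are not given in the sources used here.

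Counts were rounded and tested with edgeR 4.0.16 in R 4.3.3 (TMM scaling, its standard filter for low counts, quasi-likelihood test, Benjamini-Hochberg adjustment over all genes tested). Each comparison used its own 6 libraries, and the interaction used all 12. Genes with an adjusted p under 0.05 were called. The standard error is the log2 fold change divided by the root of the test's F value. Shares and ratios came from the deposited FPKM, with exact two-sided permutation tests over libraries. Every library is 1 kidney, totals over 1 transcript per gene ran from 51007366 to 107969888 counts, and p-values measure the spread between these libraries. The scripts were tested on simulated data. The members and the gene lists were chosen with earlier results of these data known. The text names all 9 members and, from each list, the 2 called genes with the largest positive and the 2 with the largest negative change, if the mean FPKM reached 1 in a compared group. Of the genes this rule takes, 2 are not reported here.

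Alternatives were DESeq2 1.42.0, edgeR's exact test, all 12 libraries in 1 fit, library sizes alone, upper quartile scaling, no filter, a mean FPKM of at least 1, a block for the replicate number, limma 3.58.1 on log2(FPKM + 1) and log2(FPKM + 0.1), all deposited transcripts and each library left out. The removal of 2 WT baseline libraries and of a length trend was chosen after seeing the data. Same-numbered baseline and IR libraries deviated together from their group means, with correlations from 0.347 to 0.353 in WT and from 0.121 to 0.352 in libraries labelled Tet2-/-. They come from different mice, and the pairing is read from these correlations alone.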

Additional observations from a re-analysis of the deposited data

Results flagged for a closer look

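The IR effect differed between the genotype labels, by edgeR's quasi-likelihood test of the interaction over 12 libraries at an adjusted p under 0.05, for Cdh1 and for 11 named genes of the junction lists, and for Tet2. Each value is the log2 IR effect in kidneys labelled Tet2-/- minus that in WT kidneys. Across all genes 9.18% were called in this test. The number of list entries called, some genes being in more than 1 list, depended on the libraries. Over the 10 lists it was 17 in the positive and 6 in the negative direction, 7 to 26 and 4 to 6 with a library left out, and 0 and 0 without WT baseline replicates 2 and 3 together, where 1 library was left in that group. Over 1.5 times fewer were positive without WT baseline replicate 3, without replicate 2 or 3 of the baseline kidneys labelled Tet2-/-, without WT IR replicate 1 or 3 and without replicate 2 of the IR kidneys labelled Tet2-/-, and over 1.5 times more without WT IR replicate 2.

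Among the adhesion genes, Cdh1 had an interaction of 1.05 (adjusted p = 0.0326), the nectin-like receptor gene Pvr 2.01 (adjusted p = 0.0195) and the phosphatase gene Ptprj, whose profile lay nearest to that of Cdh1, 1.198 (adjusted p = 0.0158). In the negative direction were the brush border cadherins Cdhr2 at -1.55 (adjusted p = 0.00805) and Cdhr5 at -0.77 (adjusted p = 0.0278) and the desmosomal plakin Evpl at -1.30 (adjusted p = 0.0156). Proximal tubule markers summed to 971 to 1593 FPKM in IR kidneys labelled Tet2-/- and to 2852 to 3701 FPKM in WT IR kidneys. The part of these markers in these values was not tested.

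Among the regulators, Csnk1e had 1.66 (adjusted p = 0.0118), Klf4 1.68 (adjusted p = 0.041) and Klf5 3.71 (adjusted p = 0.0134). For Klf5 the baseline groups also stood apart, at 0.229 to 0.384 FPKM under the label Tet2-/- and 1.31 to 3.82 FPKM in WT kidneys. Urothelium markers summed to 1.79 to 9.21 FPKM and 19.0 to 43.6 FPKM in the same groups, and their part in the Klf5 value was not tested. Notum had -1.75 (adjusted p = 0.00409). The proteases Mmp7 and Mmp9 had 4.63 (adjusted p = 0.029) and 3.52 (adjusted p = 0.0466), and both rest on few reads at baseline, at most 30.5 counts per library for Mmp7 and 41.5 for Mmp9, so the fitted values depend on the prior count that edgeR adds. Tet2 itself had -2.001 (adjusted p = 0.0285).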

How the results depend on the processing

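Of the 9 members, Cdh1, Cdh3, Cdh6, Ctnna1, Ctnnb1 and Jup were called higher after IR in kidneys labelled Tet2-/- under all 17 alternatives with a p. The Cdh6 value was 0.65 in limma on log2(FPKM + 1), where the added 1 exceeds most of its FPKM. The number called higher there was 6 to 7, and lower 0 to 1, with 1 library left out. It was 0 lower with library sizes alone and with limma on FPKM, scalings under which the median of all genes in that comparison was 0.27 and 0.15 (at log2(FPKM + 0.1), 0.25). In WT kidneys DESeq2 called 1 higher and 1 lower and the exact test 1 higher, and leaving out a library gave 0 and 0. For genotype after IR, DESeq2 called 3 and the fit of all 12 libraries 2 higher, and for genotype at baseline and after IR leaving out a library gave 0. In the interaction, DESeq2, library sizes alone, upper quartile scaling, a mean FPKM of at least 1 and both limma fits called 2, leaving out a library gave 0 to 2, and removing both adipocyte-rich WT baseline libraries, which leaves 1 in that group, gave 0. The cause was not tested, and the shares of all genes called under these alternatives are not given here.

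The replicate block changed no member's call. In it Cdh1 was -0.0064 for the IR effect in WT, Cdh3 -0.0067 for genotype at baseline and Cdh2 -0.0029 for genotype after IR, and the Cdh1 interaction was 1.06 (adjusted p = 0.0366). Same-numbered libraries of different genotype labels did not all correlate (from -0.17 to 0.31), and share only a number there.

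Signs turned for values that were not called. For the IR effect in WT, Cdh1 was -0.011 with upper quartile scaling and from -0.17 to 0.18 with a library left out, and Cdh2 was 0.0033 with DESeq2, 0.042 with library sizes alone, 0.016 and 0.043 with limma, 0.24 without both adipocyte-rich libraries and from -0.24 to 0.22 with a library left out. For the IR effect under the label Tet2-/-, Cdh2 was 0.079 with library sizes alone, 0.049 and 0.16 with limma and from -0.45 to 0.36 with a library left out. For genotype at baseline, limma gave Cdh2 -0.026 and Cdh3 -0.022 and -0.078, the removal of both adipocyte-rich libraries gave Cdh3 -0.054 and Cdh16 0.074, and leaving out a library gave Cdh2 from -0.35 to 0.45, Cdh3 from -0.37 to 0.28 and Jup from -0.066 to 0.051. For genotype after IR, leaving out a library gave Cdh2 from -0.28 to 0.25 and Cdh6 from -0.25 to 0.22. In the interaction, library sizes alone and limma gave Cdh2 0.037, 0.033 and 0.11 and Cdh16 0.071, 0.068 and 0.068, and leaving out a library gave Cdh2 from -0.44 to 0.41 and Cdh16 from -0.26 to 0.0065.

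The Cdh1 share of cadherin FPKM, summed over all deposited transcripts, differed by 7.06 percentage points with IR under the label Tet2-/- and by 4.58 between the IR groups, since Cdh16 has 3 transcripts that share reads. With a library left out it differed by 13.9 to 17.1 and 7.73 to 11.4 points, by 2.11 to 4.991 with IR in WT and by -3.27 to -1.31 at baseline. For the IR effect under the label Tet2-/-, the alternatives called 15 to 17 nectin and linker genes higher, 6 to 10 proteases, 1 to 10 genes of the destruction complex list and 1 to 4 transition factors.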
